A study of Mus musculus with 8 samples.

Results

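The VEGF, angiopoietin and adrenomedullin genes of blood vessel growth were followed through the ligands Vegfa, Vegfb, Angpt1, Angpt2 and Adm, and the receptors Flt1, Kdr, Nrp1, Tek and Aplnr. VEGF stands for vascular endothelial growth factor, and the apelin receptor Aplnr was taken in with them. The members were chosen by name, with earlier results of these data known. They are 10 of the 18194 genes that the array annotation pairs with a probe set by exactly 1 gene symbol. Together they had 21 probe sets, each a group of short probes that reads 1 stretch of a transcript. The study measured RNA of mouse quadriceps muscle on 8 arrays, 4 labelled control and 4 labelled hypoxia, 1 array per sample. All animals were adult males of the C57Bl/10 strain. Controls were kept in room conditions for 2 weeks. In the hypoxia group oxygen was lowered in steps from 21% to 8% during the first week, and the mice then spent 7 days at 8%. A sealed chamber was described for the hypoxia mice only, so low oxygen and housing in the chamber cannot be told apart, and body weights were not used here. The labels also do not say that each sample was a separate animal, so p-values measure only the spread between these samples, which may be technical.

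VEGF-A is the main secreted driver of new capillaries, is made in large part by muscle fibres in this tissue, and is a textbook target of the hypoxia-inducible factors (HIF). It signals through KDR on endothelial cells, while FLT1 binds VEGF-A and VEGF-B and, in its soluble form, traps them; NRP1 is a co-receptor. Angiopoietin-1 from perivascular cells activates the receptor TEK (Tie2) and steadies vessels, angiopoietin-2 from endothelium often opposes it, adrenomedullin acts on endothelium through CALCRL with a RAMP partner, and APLNR is the receptor for the peptide apelin.

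HIF binds DNA at the core letters ACGTG or GCGTG, and for that reason the 250 bases before the annotated start of transcription were searched for both on both strands. RefSeq windows (build GRCm38.p6) matched 7 of the 10 genes, and 6 of their 8 windows held a match, beside 38.6% of 32851 mouse windows of this length. The windows of Adm, the only member higher in hypoxia by its brightest probe set, of Vegfb, which was lower, and of Vegfa are printed 5′ to 3′ along the gene, with matches in capitals (CACGC and CACGT are the other strand's reading). Adm lies at chr7:110627407-110627656 (plus strand), with matches whose first bases are 90 and 54 bases before the start. Vegfb lies at chr19:6987652-6987901 (minus strand), with matches at 237 and 81 bases. The Vegfa window at chr17:46032378-46032627 (minus strand) held none. A second annotated Vegfa start lies further along the gene, and its window (chr17:46025164-46025413), not printed, held 2. Sequence more than 250 bases before a start was not searched.
Adm: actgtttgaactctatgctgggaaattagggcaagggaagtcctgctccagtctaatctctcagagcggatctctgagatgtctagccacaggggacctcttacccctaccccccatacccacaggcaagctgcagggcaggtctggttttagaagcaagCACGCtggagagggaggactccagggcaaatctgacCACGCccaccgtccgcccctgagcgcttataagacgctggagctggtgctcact
Vegfb: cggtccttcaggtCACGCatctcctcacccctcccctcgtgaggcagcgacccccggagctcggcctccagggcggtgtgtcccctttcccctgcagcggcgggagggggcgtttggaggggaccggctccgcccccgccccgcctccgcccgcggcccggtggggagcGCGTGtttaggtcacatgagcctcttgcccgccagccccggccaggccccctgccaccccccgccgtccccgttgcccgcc
Vegfa: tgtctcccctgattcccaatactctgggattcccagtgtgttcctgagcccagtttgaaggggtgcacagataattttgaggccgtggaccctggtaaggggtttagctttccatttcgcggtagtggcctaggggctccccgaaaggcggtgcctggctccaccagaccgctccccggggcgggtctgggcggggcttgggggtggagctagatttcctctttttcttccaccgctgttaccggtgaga
A match of 5 letters is a description of these windows, not a binding site, and matches stood before genes that were higher, lower or not called here.

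Signals are the authors' MAS5 intensities (arbitrary units on a linear scale), and changes are hypoxia minus control on the log2(signal + 16) scale, with limma p-values adjusted by Benjamini-Hochberg over 27022 probe sets and a threshold of 0.05. Signals of different probe sets cannot be ranked against each other, and 4 arrays a group limit the precision. Hypoxia 1 stood apart in RNA quality, with a Gapdh 3′ signal 3.44 times its 5′ signal; this quotient was 0.776 to 0.807 in controls and 0.801 to 0.874 on the remaining hypoxia arrays. For beta-actin it was 2.53 on Hypoxia 1, 1.09 to 1.25 in controls and 1.40 to 1.59 on the rest of the hypoxia arrays. Every hypoxia array was thus above every control for beta-actin, so this measure of RNA quality differed with the group. Leaving out Hypoxia 1 does not remove that difference, and its part in the results was not tested. Correlations of log2 values over probe sets ran from 0.943 to 0.952 within controls, 0.920 to 0.952 within hypoxia and 0.849 to 0.890 between the groups. Values without Hypoxia 1 are therefore given beside the called member results. Muscle fibre genes, the defining markers of the labelled tissue, were all 10 above the filter, with a summed signal of 498400 to 600500 in the controls and 302400 to 408600 in hypoxia. Of them 9 fell, a number that was 3 after quantile normalization and 4 after median centring of the arrays. Of all probe sets tested, 28.8% passed the threshold in either direction, 12.5% higher and 16.4% lower, so single calls were frequent on these arrays.

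In hypoxia muscle, Adm rose 3.45-fold, while Vegfb fell 3.30-fold, Angpt1 3.46-fold and Aplnr 6.80-fold by the probe set with the highest mean. Vegfa, Flt1, Kdr, Nrp1, Angpt2 and Tek did not pass by that probe set. The counts of 1 of 10 genes higher and 3 of 10 lower stand beside 14.0% and 17.8% of all 13257 genes read in this way, and with 10 genes they do not set the group apart. The median change was -0.43 over the 10 genes and -0.04 over all genes. Of the 21 probe sets, 19 were above the filter on dim signals. Of these 3 were higher and 5 lower, beside 12.5% and 16.4% of all probe sets tested. In 8 of the 19 the control and hypoxia arrays did not overlap, 2 of them higher and 6 lower, beside 30.1% of all probe sets tested. Kdr, Angpt2 and Tek had no probe set that passed.

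**Figure D1:**
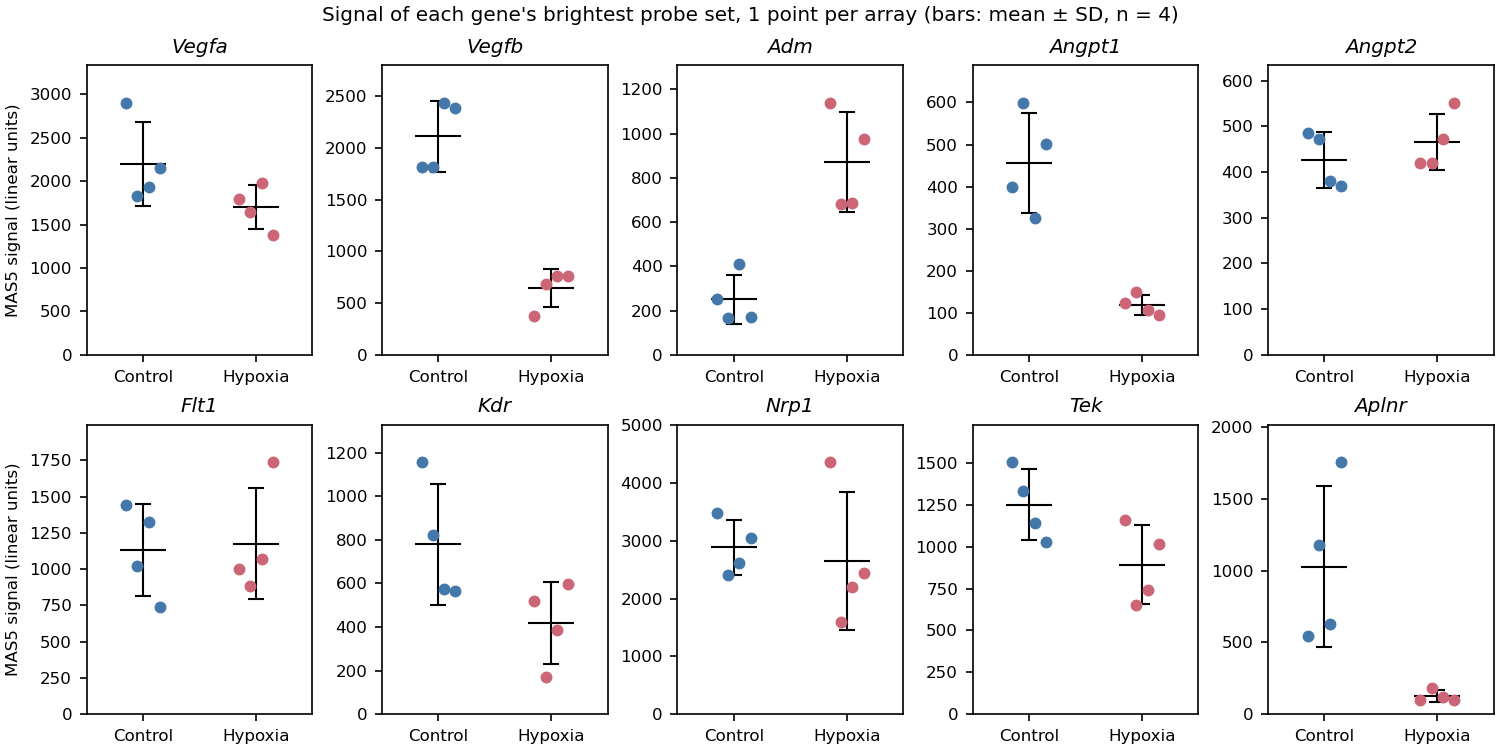
MAS5 signal (linear axis from 0, arbitrary units) of the brightest probe set of each of the 10 genes, with a point per array and bars at the mean ± SD of the 4 control and the 4 hypoxia arrays. The hypoxia points lie above all controls for Adm, below all controls for Vegfb, Angpt1 and Aplnr, and overlap the controls for the other genes.

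Adm encodes adrenomedullin, a peptide that widens vessels and is a well known target of HIF. Its brightest probe set (1447839_x_at) read 254, 167, 409 and 172 on control arrays 1 to 4 and 1138, 683, 685 and 976 on hypoxia arrays 1 to 4. Every hypoxia array was above every control array, and Control 3 was the highest control. The means were 251 ± 113 (SD, n = 4) in control and 870 ± 225 (SD, n = 4) in hypoxia muscle, a log2 change of 1.79 ± 0.28 (SE; 95% interval 1.18 to 2.39; limma adjusted p = 0.000455). A further Adm probe set (1416077_at) went from 249 ± 117 to 656 ± 115 (SD, n = 4 each), a change of 1.41 ± 0.26 (limma adjusted p = 0.00155). Its hypoxia arrays at 510 to 756 again lay above its controls at 174 to 423. Without Hypoxia 1 the changes were 1.65 and 1.34. Adm was the only member whose probe sets were all called in 1 direction with more than 1 probe set above the filter.

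Vegfa was read by a pair of probe sets that differed. The brighter (1420909_at) read 2900.1, 1835, 1930.0 and 2147 in the controls and 1791, 1645, 1984 and 1384 in hypoxia, and the groups overlapped. Its change of -0.36 ± 0.18 (95% interval -0.74 to 0.03) did not pass (limma adjusted p = 0.155). All 4 hypoxia arrays were below the control median. The dimmer one (1451959_a_at) read 904, 912, 513 and 561 in the controls and 116, 322, 431 and 216 in hypoxia, with no overlap and Hypoxia 1 lowest. It fell 2.74-fold, by 1.46 ± 0.34 on the log2 scale (limma adjusted p = 0.00663), and without Hypoxia 1 by 1.13 (limma adjusted p = 0.00844). The 2 probe sets thus changed unequally by 1.10 within arrays (exact permutation p = 0.0286, 0.0714 after adjustment over the 15 such pairs of the 10 genes). These pairs were compared after the values were seen, and which Vegfa transcripts each probe set reads is not given in the sources used here.

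Vegfb, whose product binds FLT1 and is abundant in oxidative muscle and heart, had 1 probe set. It read 1818, 1814, 2435 and 2389 in the controls and 380, 682, 760 and 762 in hypoxia. All hypoxia arrays lay far below all controls, Hypoxia 1 lowest. The means were 2114 ± 344 and 646 ± 181 (SD, n = 4 each), a log2 change of -1.72 ± 0.22 (95% interval -2.21 to -1.24; limma adjusted p = 0.000121). Leaving out Hypoxia 1 gave -1.49 (limma adjusted p = 3.95e-05). Within each array the Vegfa value (brightest probe set) minus the Vegfb value shifted up by 1.36 in hypoxia, with no overlap between the groups. Its exact permutation p of 0.0286 is the smallest that 4 against 4 arrays allow, and it was 0.0762 after adjustment over the 8 within-array differences compared. The dimmer Vegfa probe set was not used for this difference, and its change of -1.46 was nearer to the -1.72 of Vegfb.

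Angpt1, the TEK agonist, read 399, 599, 325 and 501 in the controls and 123, 149, 107 and 94.8 in hypoxia (1439066_at). The groups were well apart, with the lowest control more than the highest hypoxia array. The means were 456 ± 120 and 119 ± 23.5 (SD, n = 4 each), a change of -1.79 ± 0.24 (95% interval -2.31 to -1.27; limma adjusted p = 0.000151), and -1.81 without Hypoxia 1. A dimmer Angpt1 probe set (1421441_at) was below the filter and not tested. It read 137, 298, 140.1 and 180.0 in the controls and 7.2, 6.4, 19.6 and 10.5 in hypoxia, also without overlap. Angpt2, the context-dependent counterpart made by endothelium, read 486, 471, 380 and 369 in the controls and 421, 420.2, 473 and 551 in hypoxia (1448831_at). These groups overlapped, and the change of 0.13 ± 0.18 did not pass (95% interval -0.26 to 0.51; limma adjusted p = 0.646). The Angpt2 value minus the Angpt1 value rose by 1.92 on the log2 scale within arrays (exact permutation p = 0.0286, adjusted 0.0762). The control and hypoxia arrays did not overlap in it.

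**Figure D2:**
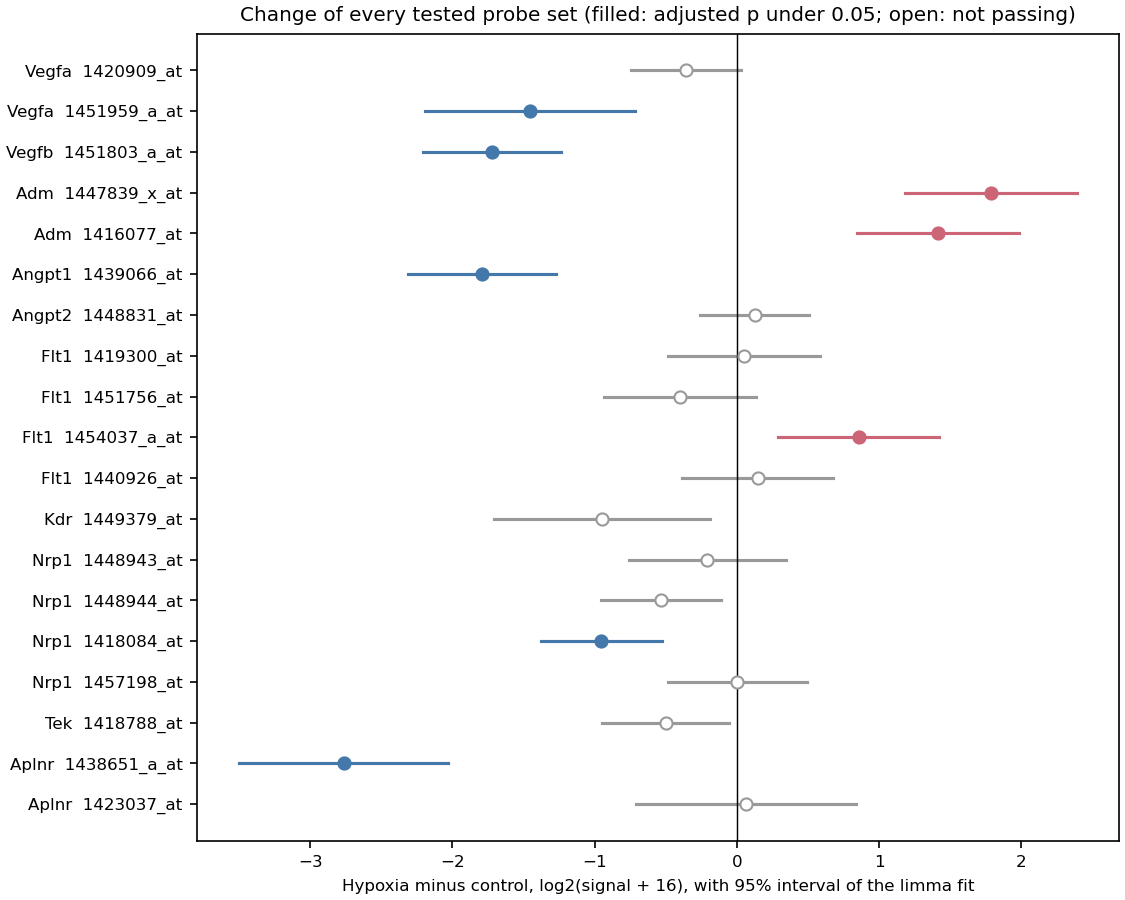
Log2 change (hypoxia minus control on log2(signal + 16)) with the 95% interval of the limma fit for each of the 19 probe sets above the filter; filled points passed the adjusted threshold. Both Adm probe sets lie above 0, whereas Vegfa, Flt1, Nrp1 and Aplnr each have filled and open points.

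Among the VEGF receptors, the probe sets of Flt1 gave unlike changes. The brightest (1419300_at) read 1442, 1021, 1328 and 739 in the controls and 1004, 886, 1072 and 1737 in hypoxia, with wide overlap. Its change was 0.05 ± 0.25 (95% interval -0.49 to 0.58; limma adjusted p = 0.909). A dimmer one (1454037_a_at) rose, reading 604, 243, 311 and 242 in the controls and 628, 532, 595 and 663 in hypoxia. Only Control 1 reached the hypoxia range. The means were 350 ± 172 and 604 ± 55.9 (SD, n = 4 each), a 1.81-fold rise (0.86 ± 0.26; limma adjusted p = 0.0262). This call was lost without Control 2 (limma adjusted p = 0.0799), Control 3 (0.0586), Control 4 (0.0808) or Hypoxia 4 (0.0640), and without Hypoxia 1 the change was 0.84 (limma adjusted p = 0.0447). The other Flt1 probe sets changed by -0.40 ± 0.25 (1451756_at) and 0.15 ± 0.24 (1440926_at), neither passing. Of the 6 Flt1 pairs, 3 moved apart within arrays without overlap, the largest shift being -1.26 for 1451756_at minus 1454037_a_at (exact permutation p = 0.0286, adjusted 0.0714). Flt1 encodes a full-length and a soluble receptor, and which of them each probe set reads is not given in the sources used here.

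Kdr, the main signalling receptor for VEGF-A, read 1155, 821, 573 and 564 in the controls and 518, 168, 386 and 598 in hypoxia by its only probe set (1449379_at). Hypoxia 4 was inside the control range and Hypoxia 2 was far below it. The means were 778 ± 278 and 418 ± 188 (SD, n = 4 each), a change of -0.95 ± 0.35 whose 95% interval of -1.70 to -0.19 leaves out 0, although the value missed the threshold after adjustment (limma adjusted p = 0.0603). It passed without Hypoxia 1 (-1.09; limma adjusted p = 0.0428) and without Hypoxia 4 (-1.16; limma adjusted p = 0.0347). The change shrank to -0.58 without Hypoxia 2 (limma adjusted p = 0.15) and to -0.74 without Control 1 (limma adjusted p = 0.165). Flt1 minus Kdr within arrays went up by 0.995 (exact permutation p = 0.0571, adjusted 0.114).

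Nrp1, the co-receptor for VEGF and semaphorins, had 4 probe sets with changes from -0.95 to 0.00. The brightest (1448943_at) read 3480, 2404, 2615 and 3044 in the controls and 4357, 1598, 2196 and 2434 in hypoxia. Hypoxia 1 was the highest of all 8 arrays there, and the others reached at most 2434, next to the lowest control of 2404. The change was -0.21 ± 0.25 (limma adjusted p = 0.590), and -0.48 without Hypoxia 1 (limma adjusted p = 0.0667). Probe set 1418084_at fell 1.93-fold, from 1501, 1006, 1066 and 1040.3 to 573, 432, 718 and 636, with no overlap (-0.95 ± 0.20; limma adjusted p = 0.003; -0.95 without Hypoxia 1). Probe set 1448944_at did not overlap either, at 802 to 1351 against 622 to 791. Its change of -0.53 ± 0.20 missed the threshold (limma adjusted p = 0.0589) but passed without Control 3 (-0.65; limma adjusted p = 0.0344). Without Control 1 it shrank to -0.41 (limma adjusted p = 0.167). The dimmest (1457198_at) changed by 0.00 (limma adjusted p = 0.993).

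Tek, the angiopoietin receptor, read 1504, 1331, 1144 and 1025 in the controls and 1161, 653, 743 and 1016 in hypoxia. Hypoxia 1 and Hypoxia 4 lay near the lower controls and the remaining pair below them. Its change of -0.50 ± 0.20 (95% interval -0.95 to -0.06) missed the threshold (limma adjusted p = 0.0871) and passed without Hypoxia 1 (-0.64; limma adjusted p = 0.0273). Without Hypoxia 2 it shrank to -0.37 (limma adjusted p = 0.234).

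Aplnr, which endothelial cells carry, showed the largest change among the 10 genes read by their brightest probe sets. Its brightest probe set (1438651_a_at) read 548, 1180, 631 and 1756 in the controls and 99.5, 184, 122 and 97.8 in hypoxia. The controls were themselves widely spread, yet every hypoxia array was below the lowest control. The means were 1029 ± 560 and 126 ± 40.3 (SD, n = 4 each), a log2 change of -2.77 ± 0.34 (95% interval -3.50 to -2.03; limma adjusted p = 7.92e-05), and -2.68 without Hypoxia 1. The other Aplnr probe set (1423037_at) did not show it, reading 216, 250, 208 and 90.4 in the controls and 132, 125, 309 and 242 in hypoxia (0.06 ± 0.36; limma adjusted p = 0.919). Within arrays the brightest minus the other changed by -2.83, with no overlap (exact permutation p = 0.0286, adjusted 0.0714), so the fall of Aplnr is uncertain at the level of the gene.

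**Figure D3:**
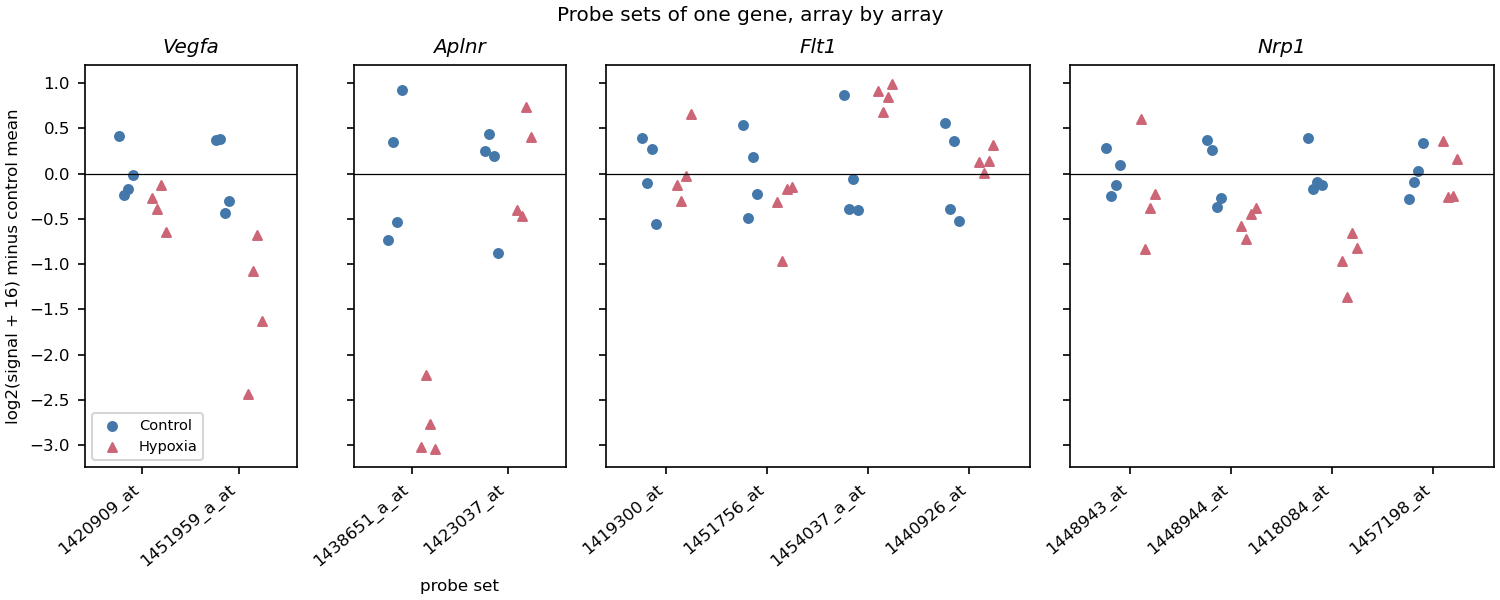
Log2(signal + 16) of each array minus the control mean of the same probe set, for every tested probe set of Vegfa, Aplnr, Flt1 and Nrp1 (circles for 4 control arrays, triangles for 4 hypoxia arrays). For Aplnr the hypoxia points of 1438651_a_at lie far below all controls while those of 1423037_at overlap them, and Hypoxia 1 is the highest point of Nrp1 1448943_at.

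Endothelial markers give a measure of how much vessel RNA each muscle sample held. Of 18 such genes, all above the filter, 5 fell and 1 rose, with a median change of -0.11. Of all genes 17.8% were lower and 14.0% higher, and these shares stand beside every count of list genes below. Cd34, a marker of capillary endothelium and of progenitor cells, fell by 1.95 on the log2 scale, Cldn5 (a tight junction protein) by 1.09, Sox18 by 0.91, Icam2 by 0.77 and Eng by 0.49. The defining markers Pecam1 and Cdh5, singled out after their values were seen, changed by 0.16 (limma adjusted p = 0.789) and 0.10 (limma adjusted p = 0.854) by their brightest probe sets. A dimmer Cdh5 probe set was lower (-0.74; limma adjusted p = 0.0401), and a dimmer one of Eng changed by 0.06 and did not pass. The 1 higher gene was Tal1, a transcription factor (1.44; limma adjusted p = 0.0349), whose call was lost without Control 2, Hypoxia 1, Hypoxia 3 or Hypoxia 4. The summed endothelial signal was 14920 to 19040 in the controls and 10300 to 15340 in hypoxia. In whole muscle RNA, fewer cells of a type and less RNA per cell cannot be told apart.

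Against the mean of these 18 markers on the same array, Aplnr (brightest probe set) was lower by 2.52 in hypoxia, with no overlap (exact permutation p = 0.0286, adjusted 0.0762). The corresponding shifts were -0.70 for Kdr (exact permutation p = 0.143), -0.25 for Tek (0.229), 0.30 for Flt1 (0.257) and 0.04 for Nrp1 (1). None of the 8 within-array differences passed after adjustment, the limit of 0.0286 on each p being set by the number of arrays. Each rests on the brightest probe set of a gene, and the other Aplnr probe set changed by 0.06. Pericyte and smooth muscle genes, whose cells are a source of Angpt1, fell in 4 of 9 tested and rose in 1, beside 17.8% and 14.0% of all genes. Their median change was -0.19. The contractile genes Tagln (-1.24), Acta2 (-0.99) and Myh11 (-0.94) fell, as did Rgs5 (-0.72), a pericyte gene whose other 3 probe sets fell too (-2.07 to -1.41). The Rgs5 call by the brightest probe set was lost in 9 of 19 alternatives. The remaining pericyte markers, named after their values were seen, were not called lower: Kcnj8 (0.04), Abcc9 (-0.14), Notch3 (-0.14) and Cspg4 (-0.19) did not pass, and Pdgfrb rose by 0.53 (limma adjusted p = 0.0414; -0.96 by its other probe set, not passing). The count of higher genes in the list was 0 in 10 of 19 alternatives, and without Hypoxia 1 the list had 0 higher and 3 lower. Their summed signal was 38720 to 45380 in the controls and 21540 to 34820 in hypoxia. Fibroblast genes moved beside Angpt1 as well: all 6 fell, with a median of -2.58, including Col3a1 (-3.65) and Lum (-3.67). The part of these cells in the Angpt1, Aplnr and Kdr values was not tested.

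**Figure D4:**
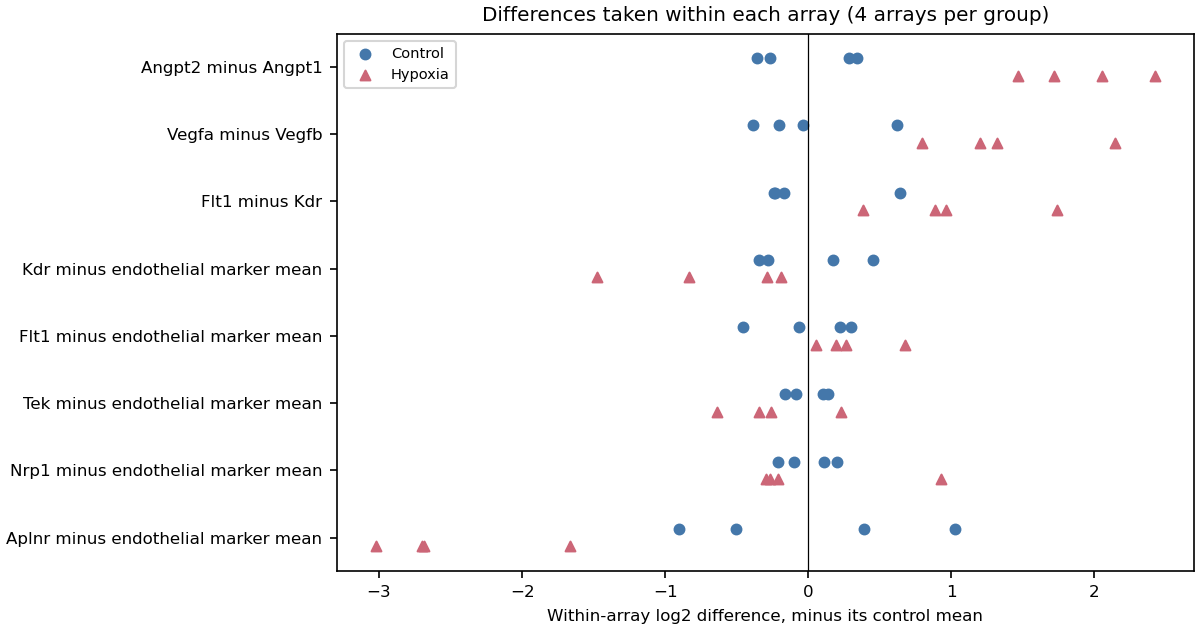
Log2 difference between a pair of genes, or between a receptor and the mean of 18 endothelial markers, on each array, minus the mean of that difference over controls (circles for 4 control arrays, triangles for 4 hypoxia arrays). Angpt2 minus Angpt1, Vegfa minus Vegfb and Aplnr minus endothelial markers do not overlap between the groups, and the other 5 do. Each gene is read by its brightest probe set.

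The other ligands of these families included the largest rise seen in the pathway. Vegfd, a ligand of the lymphatic receptor FLT4, read 263, 405, 515 and 349 in the controls and 6336, 4124, 3280.1 and 3427 in hypoxia. The lowest hypoxia array was far above the highest control, with means of 383 ± 106 and 4292 ± 1412 (SD, n = 4 each), a 10.7-fold rise (3.42 ± 0.24; limma adjusted p = 1.14e-06), and its other probe sets rose by 3.44 and 2.82. Of 9 further ligands 5 were tested, and Vegfd was the only 1 to pass. Vegfc changed by -0.45 (limma adjusted p = 0.0686), which passed without Control 3. Apln, the apelin ligand of APLNR, changed by 0.03 (limma adjusted p = 0.945). Pgf, an FLT1 ligand, was below the filter at 31.1 ± 9.83 and 51.7 ± 45.6 (SD, n = 4 each). Lyve1, a lymphatic endothelial marker, rose by 0.59 (limma adjusted p = 0.0202), a call lost without Control 2 or Control 4 and not shown by its other probe set (0.05; limma adjusted p = 0.92). The other lymphatic gene tested did not pass.

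Among 9 further receptors and co-receptors, all tested, 1 fell and none rose. Ramp1, which makes CALCRL a receptor for the calcitonin gene-related peptide, fell 6.42-fold: it read 2736, 2862, 1899 and 2367 in the controls and 272, 309, 414 and 513 in hypoxia (-2.68; limma adjusted p = 2.76e-06). No array of either group came near the other. The parts of the adrenomedullin receptor itself did not pass: Calcrl changed by -0.35 (limma adjusted p = 0.22), Ramp2 by -0.07 (0.827) and Ramp3 by 0.32 (0.615). Tie1, the partner of TEK, changed by -0.78 (limma adjusted p = 0.0728) and Ackr3 by -0.57 (0.0772). Both passed without Control 4, which takes the count of lower receptors from 1 to 3.

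Below the receptors, 25 of 31 listed signalling genes were tested, and 4 rose and 5 fell, with a median of 0.00. Pik3r1, the regulatory subunit of PI3-kinase, rose by 1.85 (limma adjusted p = 0.000163), and its other probe sets by 0.92 and 1.53. Akt1, the kinase downstream of it, rose by 2.45 by its brightest probe set, but changed by -0.59 and -0.04 by the others, so its direction is uncertain. Prkca, a kinase on the branch from KDR to MAP kinase, fell by 2.09, with 0.24 by its other probe set. Leaving out Control 3 or Hypoxia 1 reduced the number that rose to 2, and leaving out Control 1, Control 2 or Hypoxia 4 reduced the number that fell to 3.

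The Notch branch restrains tip cells that answer VEGF. Of 11 genes tested there, 4 fell and 1 rose, beside 17.8% and 14.0% of all genes. The feedback gene Nrarp fell by 1.10 (limma adjusted p = 0.00303), the target Hes1 by 0.80, the ligand Jag2 by 0.74 and Notch1 by 0.59. Further probe sets of Nrarp (-1.38) and Jag2 (-1.21) fell too, but that of Notch1 did not pass (-0.02). The Notch1 call was lost in 9 of 19 alternatives, among them quantile normalization (limma adjusted p = 0.0761) and leaving out Control 1, Control 2, Control 3, Hypoxia 1 or Hypoxia 2. Notch4 was the 1 that rose (0.71; limma adjusted p = 0.0393; 0.06 by its other probe set, not passing), and this call was lost on leaving out any array but Control 3 or Hypoxia 3. Of 18 tested inhibitors and other angiogenic factors 4 fell, beside 17.8% of all genes. These were Col18a1, which carries endostatin, Sema3c, Pdgfb and Egfl7, with falls of 0.93, 0.81, 0.64 and 0.59. A further probe set of Col18a1 fell (-1.24), while those of Sema3c (-0.05), Pdgfb (-0.21) and Egfl7 (-0.69 to -0.30) did not pass. The Pdgfb call was lost in 10 of 19 alternatives, quantile normalization (limma adjusted p = 0.0712) and median centring (0.055) included, the Col18a1 call in 8 and the Egfl7 call in 3. Without Control 1 only 1 fell and 1 rose, and without Control 2 or Hypoxia 1 the number was 2.

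Regulators of Vegfa included 1 of 15 that rose and 2 that fell. Egln3, an oxygen sensor that is itself induced by HIF, rose from 1173 ± 313 to 5388 ± 996 (SD, n = 4 each; 2.21; limma adjusted p = 9.76e-06), and its other probe set by 1.73. Hif1an, the asparagine hydroxylase that limits HIF, fell by 1.21; of its further probe sets 1 also fell (-1.17; limma adjusted p = 0.0398) and 1 did not pass (0.20). Esrra, an orphan nuclear receptor, fell by 1.22, with 0.20 by its other probe set, which did not pass. Hif1a and Epas1, the HIF subunits, changed by 0.02 (limma adjusted p = 0.952) and -0.36 (0.197) by their brightest probe sets. Another Hif1a probe set was lower (-0.67; limma adjusted p = 0.0217) and a further one did not pass (-0.17), so the Hif1a readings differ. Vhl, which marks HIF for destruction, changed by 0.99 (limma adjusted p = 0.0568; 0.29 by its other probe set, not passing). It passed in 7 of 19 alternatives, among them quantile normalization (limma adjusted p = 0.0332), median centring (0.0367) and leaving out Control 1. Over the 6 lists together 83 of 98 genes were tested, and 7 rose and 16 fell, beside 14.0% and 17.8% of all genes. Without Hypoxia 1 the number that rose was 4.

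**Figure D5:**
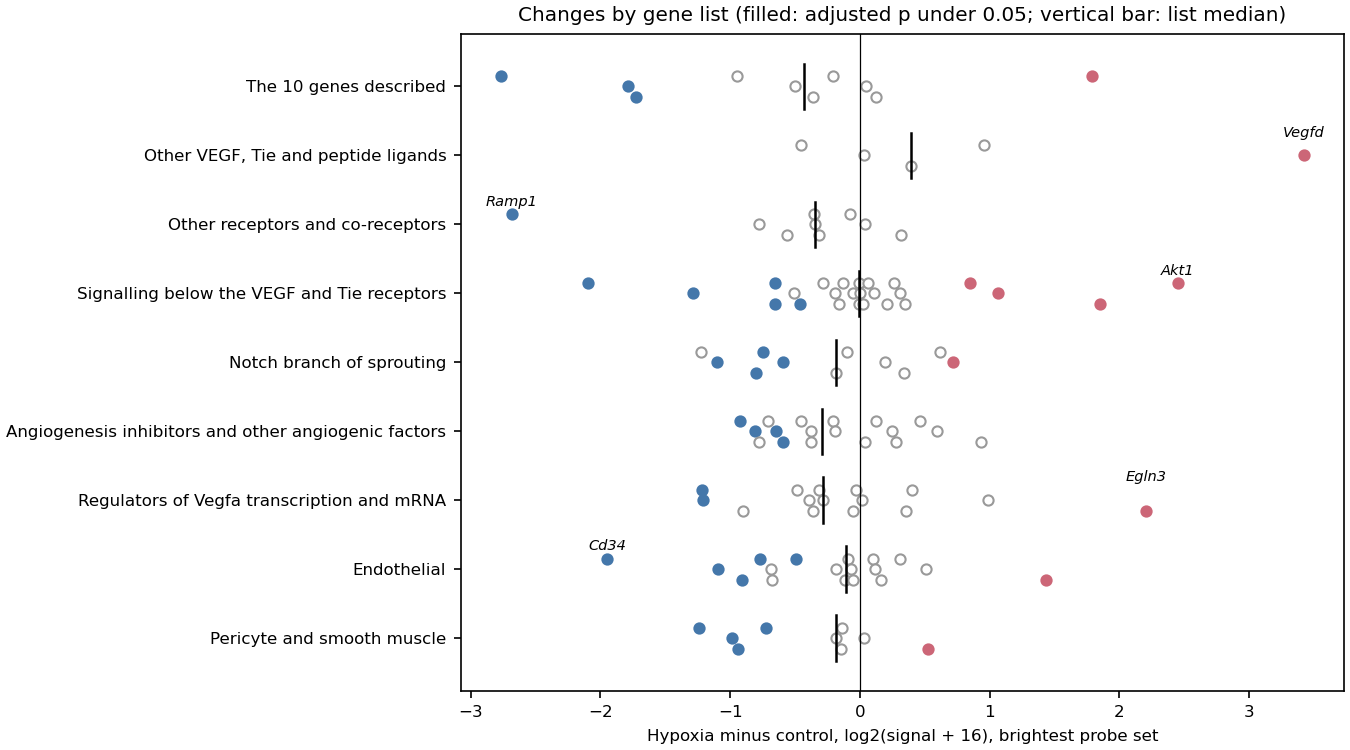
Log2 change (hypoxia minus control, brightest probe set) of each tested gene among the 10 members, the 6 pathway lists and the endothelial and pericyte lists; filled points passed the limma test and vertical bars are list medians. Vegfd and Egln3 lie far above the rest of their lists and Ramp1 far below, and the medians of the pathway lists run from -0.35 to 0.39.

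For Aplnr, Vegfb and Angpt1, the 3 members with the smallest adjusted p, the genes with the most similar values were sought among 12483 others. The measure was the root mean square log2 difference over the 8 arrays, each gene taken relative to its control mean, so it also carries the group difference. For Vegfb these were Pdlim7 (0.126), Mlf2 (0.132) and Dpcd (0.147). For Angpt1 they were Abi3bp (0.238), Slc26a11 (0.240) and Slc41a3 (0.247). Aplnr was followed less tightly, by Ociad2 (0.319), Fam78a (0.398) and Itgb6 (0.473). All 9 of these genes were lower in hypoxia, with log2 changes from -2.88 to -1.65.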

How the data were processed

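RNA of 8 quadriceps samples was hybridised to Affymetrix mouse arrays. The authors deposited MAS5 signal intensities, 1 intensity per probe set and array, named as MAS5 in the submitters' processing notes; its version is not given in the sources used here. MAS5 subtracts mismatch background and scales each array, and every array's 2% trimmed mean was 500.0. How far a change in bright transcripts moved the others through this scaling was not tested. No further normalization was applied. All columns belonged to the 8 samples, and no pair of arrays was identical. Sample titles gave the groups.

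Of 45101 probe sets, 64 controls and the 40% with the lowest mean log2(signal + 16) were left out (filter at a signal of about 90.2), leaving 27022. The platform annotation gave 1 symbol for 34958 probe sets, several for 932 (unused) and none for 9211. Groups were compared with limma 3.58.1 (R 4.3.3; lmFit, eBayes with trend, two-sided, no block), and p-values were adjusted by Benjamini-Hochberg over all 27022. Each gene was read by its brightest probe set (highest mean log2 value). Within-array differences used exact two-sided permutation tests over 70 assignments. On simulated data the test called 44.2% of probe sets changed by 1 log2 unit, 90.2% of those changed by 2 and 6 of 26853 unchanged ones. That simulation changed few probe sets and gave both groups the spread of the controls. In the real data 28.8% were called, so these shares do not carry over to it.

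The members and all lists were chosen with earlier results of these data known. Named genes are all members, genes from among the up to 4 with the smallest p of each of the 6 pathway and 10 cell marker lists, the genes Calcrl, Ramp2, Ramp3, Apln, Pgf, Tie1, Hif1a and Epas1, and the 3 nearest genes of 3 members. Not all of the list genes with the smallest p were named, and Nfatc1 and Col1a2 are among those left out. Pecam1, Cdh5, Eng, Tal1, Notch4, Ltf, Mpo, Cnn1 and 5 other pericyte genes were added after their values were seen. Same-numbered control and hypoxia arrays did not deviate together (correlations from -0.0737 to 0.00677). Alternatives covered scaling, pseudocount, filter, 1 probe set per gene, variance model, array weights, a replicate block and leaving out each array. Promoter sequences are RefSeq's (GRCm38.p6).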

Additional observations from a re-analysis of the deposited data

Results flagged for a closer look

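In the 38 groups of 4 arrays examined over the 19 tested member probe sets, 2 held an array whose gap to its nearest neighbour, as a share of the group's range on the log2 scale, was above Dixon's 95% critical value for 4 samples. Chance alone flags about 5% of groups. Hypoxia 1 stood apart for Vegfb (1451803_a_at), with a share of 0.839 at a signal of 379.6, below the other hypoxia arrays at 682 to 762. Hypoxia 1 is the array with the high Gapdh ratio of 3.44, and the Vegfb change was -1.49 without it. Control 1 stood apart for Nrp1 (1418084_at), with a share of 0.855 at a signal of 1500.9, above the other controls at 1006 to 1066.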

How the results depend on the processing

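Over the 19 member probe sets and the alternatives run, 338 values kept their side of the threshold, 9 gained the threshold, 4 lost it and 0 reversed a call. Some small changes that did not pass switched sign while staying on their side. Flt1 (1419300_at), for example, went from 0.05 to -0.15 without Hypoxia 4. The 9 gains were in Kdr, Tek and Nrp1 (1448944_at): Kdr passed with the 60% filter (limma adjusted p = 0.0474), with 1 probe set per gene (0.0496) and with array weights (0.0373), and Tek with array weights (0.0398). With array weights 5 member genes were lower instead of 3, and leaving out 1 array gave 3 to 5, with 5 without Hypoxia 1 (Kdr and Tek added). For the pathway lists together, leaving out 1 array gave 4 to 8 genes higher against 7. The endothelial list had 0 higher genes instead of 1 with a pseudocount of 1, with no filter and with the 60% filter, and 0 to 2 on leaving out 1 array. Same-numbered arrays shared only a number. With the replicate block 6882 probe sets passed instead of 7790, member genes stayed at 1 higher and 3 lower, and Notch1, Pdgfb and Rgs5 lost their calls while Vhl gained one. Where an array left out made the difference the cause was not tested, beyond the smaller number of arrays. The 60% filter and 1 probe set per gene leave out dimmer probe sets and so give no value for some. Probe sets near the filter signal of 90.2 are the least precise. In simulated data with 4 arrays a group, few changed probe sets and the control spread throughout, 12.5% of changes of 0.5 log2 units were called.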

Other observations

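Markers of blood cells and stroma shifted in the same muscle samples. Neutrophil genes had 3 of 4 tested higher with a median change of 2.25, among them S100a9 (3.94), S100a8 (3.25) and Ngp (1.24, a call lost without Hypoxia 4), while Camp changed by 0.54 and did not pass. The summed signal of these 4 was 294.8 to 757.2 in the controls and 3093 to 5735 in hypoxia. Ltf and Mpo, also on the list, were below the filter and their groups overlapped. The control and hypoxia means were 82.1 and 121 for Ltf, and 84.5 and 73.7 for Mpo. Of 10 macrophage genes 1 rose and 3 fell: Cd68, a lysosomal protein, rose from 289 ± 80.7 to 4562 ± 804 (SD, n = 4 each), whereas Csf1r, Adgre1 and Ptprc fell by 0.88, 0.85 and 0.67 on the log2 scale. A further Csf1r probe set fell (-0.73), but another of Csf1r (0.02) and that of Ptprc (-0.02) did not pass. Both tested adipocyte genes fell, with changes of -2.44 for Cidec and -2.02 for Adipoq. The 1 erythroid gene tested, Alas2, changed by 0.17, and neither of the tested Schwann cell genes passed by its brightest probe set. Mbp changed by -0.59 and passed in 3 of 19 alternatives: without Hypoxia 4, with quantile normalization and with array weights. Other Mbp probe sets differed in direction, with -0.65 (limma adjusted p = 0.0221), -1.15 (0.018) and 0.92 (0.00259).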
